A study of Mus musculus with 12 samples.

Results

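Bone morphogenetic protein (BMP) and transforming growth factor beta (TGF-beta) signalling was followed through 10 genes in lymphatic endothelial cells (LECs) sorted from mouse lung. The genes were chosen by name: the receptors Acvrl1, Eng, Bmpr2 and Tgfbr2, the inhibitory SMADs Smad6 and Smad7, the target genes Id1 and Id3, and the ligands Bmp4 and Tgfb1. All 10 were found among the 52636 genes of the deposited counts, and all 10 were among the 21440 genes that passed the filter on low counts. The LECs came from Prox1-EGFP reporter mice, in which regulatory sequence of the lymphatic transcription factor gene Prox1 drives green fluorescent protein (GFP), and all 4 groups carried this reporter. Mice breathed cigarette smoke (CS) in a whole-body chamber, or room air (RA) in the same room, for 8 weeks (acute) or at least 24 weeks (chronic), and the controls were matched for age. Exposure began at 6 weeks of age. The start and the lengths of exposure come from the study's text, whereas the labels give the time points as 8wk and Aged in the field for age. There were 2 acute RA libraries (F and M), 2 acute CS libraries (F and M), 3 chronic RA libraries (F, M1 and M2) and 5 chronic CS libraries (F, M1, M2, M3 and M4), called by the letter for sex, and the number, of each label. Cells were sorted as live, GFP-positive, CD31-positive, EpCAM-negative and negative for hematopoietic lineage markers. For the 8-week CS time point the methods give pooling of cells from several mice of a condition, whereas samples of chronic CS exposure were not pooled. Whether the acute RA libraries were pooled, and whether the chronic RA libraries were not, is not stated separately, so pooling may differ between acute CS and acute RA, and its part in the acute differences was not tested.

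In this family, dimeric ligands outside the cell bring together type II receptors, such as the products of Bmpr2 and Tgfbr2, and type I receptors, such as ALK1, the product of Acvrl1. In endothelium ALK1 responds to circulating BMP9 and BMP10 with endoglin (Eng) as its co-receptor, and the phosphorylated SMADs then switch on genes such as Id1, Id3, Smad6 and Smad7, the last pair of which feed back to dampen the signal. Inherited loss of Acvrl1 or Eng causes hereditary hemorrhagic telangiectasia. Inherited loss of Bmpr2 causes pulmonary arterial hypertension, and these genes are best known from such disorders of blood vessels.

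The shallowest library was chronic CS F, with 18821438 counts, and the deepest was acute RA F, with 56998590. Levels are CPM, that is counts divided by the library total and its TMM factor, so that libraries of different depth can be compared. Prox1 was counted at 1042 and 1262 CPM in acute CS F and M, against 2239 and 2476 CPM in acute RA F and M. In the chronic groups it was counted at 1836 to 2111 CPM in RA and 1814 to 2322 CPM in CS. The acute CS libraries stood apart in their cell type markers. The summed level of 8 lymphatic endothelial markers was 6485 CPM for F and 9822 CPM for M after acute smoke, against 15254 and 17066 CPM in the acute RA libraries. The summed level of 12 blood endothelial markers was 7622 CPM for F and 5349 CPM for M after acute smoke, against 2947 and 3789 CPM in acute RA. Of the cell types gated out by the sort, 7 of 8 leukocyte markers rose in acute CS, and Chil3, an alveolar macrophage gene, was counted at 1314 to 1355 CPM in acute CS against 31.2 to 86.6 CPM in acute RA. The summed level of 11 alveolar epithelial markers was 6527 CPM in acute CS F but 229 CPM in acute CS M, against 772 and 1084 CPM in acute RA. In these bulk samples, fewer cells of a type and less RNA per cell cannot be told apart.

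The members spanned a wide range of levels in room air. Per kilobase of exon (FPKM), Tgfbr2 was highest, with a median of 385 FPKM over the 5 RA libraries of both time points (range 222 to 425). By this median it was followed by Eng at 106 FPKM (72.3 to 127), Id3 at 91.9 FPKM (75.5 to 99.3) and Acvrl1 at 65.2 FPKM (60.8 to 71.3). Id1 had a median of 30.1 FPKM (24.2 to 36) and Tgfb1 one of 29.2 FPKM (22.8 to 31.2). The lowest 4 were Smad6 at 9.80 FPKM (7.62 to 12.1), Bmpr2 at 3.05 FPKM (2.69 to 3.62), Bmp4 at 2.15 FPKM (1.78 to 4.8) and Smad7 at 1.58 FPKM (1.01 to 1.91). The order was not the same at both time points. In acute RA, Id3 (91.9 and 99.3 FPKM) lay above Eng (72.3 and 81.4 FPKM) in both libraries, and in chronic RA Eng (106 to 127 FPKM) lay above Id3 (75.5 to 92.8 FPKM) in all 3. Id1 (30.1 and 36 FPKM) lay above Tgfb1 (22.8 and 26.6 FPKM) in acute RA, and the 2 genes overlapped in chronic RA (24.2 to 32.6 FPKM for Id1 and 29.2 to 31.2 FPKM for Tgfb1). The other neighbours that overlapped within a time point were Bmpr2 and Bmp4 in acute RA and Bmp4 and Smad7 in chronic RA.

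After acute CS, 3 of the 4 receptors, both inhibitory SMADs and both targets were higher. By the quasi-likelihood test of edgeR, with p-values adjusted by Benjamini and Hochberg over all 21440 genes, 7 of the 10 members rose (Acvrl1, Eng, Bmpr2, Smad6, Smad7, Id1 and Id3) and 0 fell. Of all genes tested, 3.47% passed this limit in the acute comparison, 2.75% as higher and 0.723% as lower. The median log2 fold change was 1.87 over the members and 0.04 over all genes. For all 10 members the 2 acute CS libraries lay outside the range of the 2 acute RA libraries (8 above, 2 below), as they did for 49.9% of all genes, and an exact permutation test of 2 libraries against 2 cannot go below 0.333. The count rested on few libraries: 1 member (Smad7) passed without acute RA F, 0 without acute RA M, and 4 (Acvrl1, Smad7, Id1 and Id3) without acute CS F, where 0.342%, 0.013% and 0.768% of all genes passed. It was 3 (Bmpr2, Id1 and Id3) when the 2 groups were fitted alone and 3 (Smad7, Id1 and Id3) with a replicate block, where 0.701% and 0.34% of all genes passed, and no member changed direction in any of these fits.

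**Figure D1:**
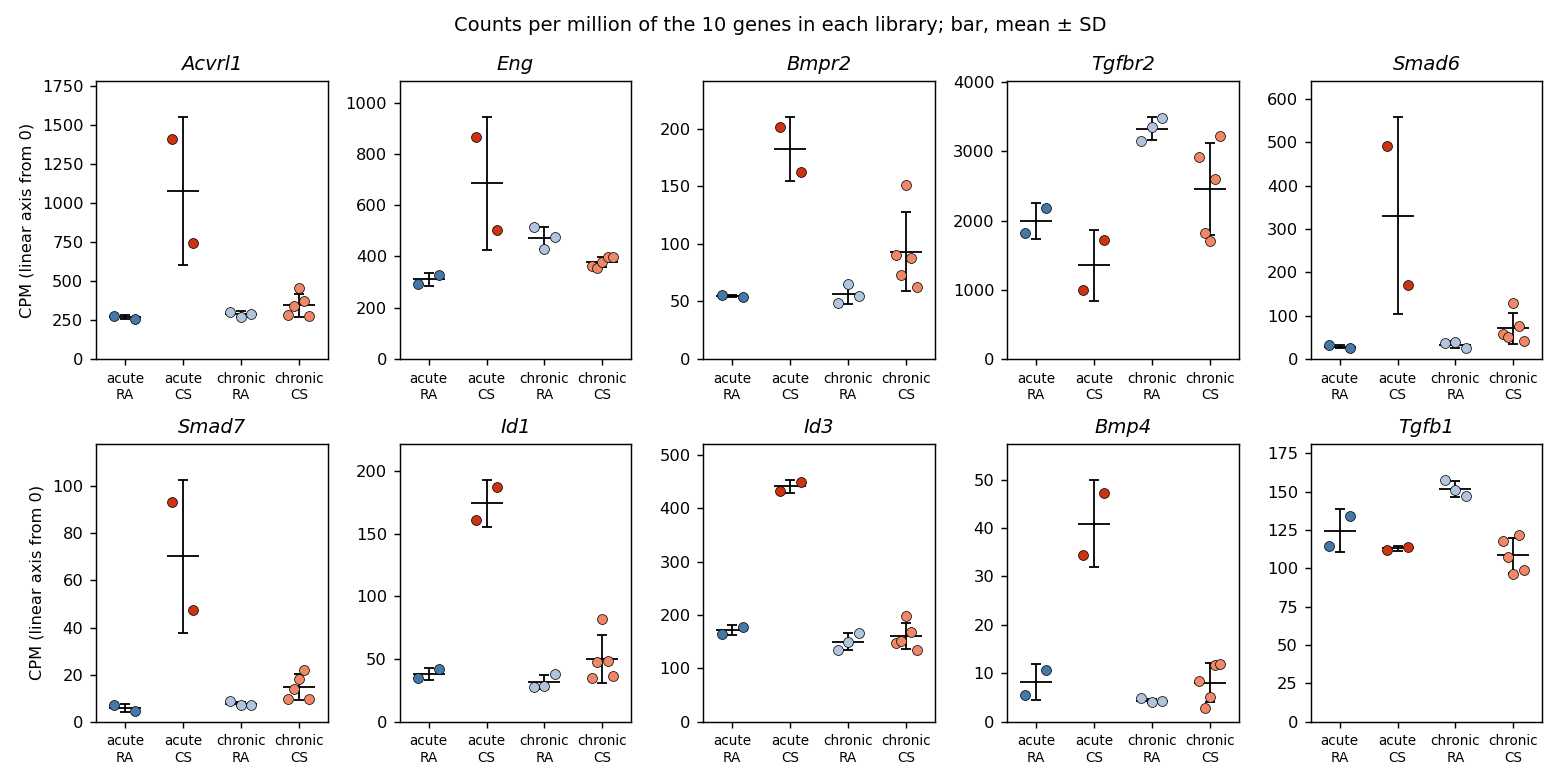
Level of each of the 10 genes in CPM (vertical axis, linear, from 0) in each library (points) of acute RA, acute CS, chronic RA and chronic CS, with the mean and SD of each group as bars. Acvrl1, Eng, Bmpr2, Smad6, Smad7, Id1, Id3 and Bmp4 lie higher in both acute CS libraries than in both acute RA libraries, whereas the chronic groups overlap for 6 of the 10 genes.

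Among the receptors, Acvrl1 (ENSMUSG00000000530, GRCm38 chromosome 15, 101128522 to 101145336, plus strand) was counted at 278 and 259 CPM in acute RA F and M, and at 1411 and 743 CPM in acute CS F and M. Both smoke libraries lay far above both controls, and F was higher than M. The log2 fold change was 2.0 (SE 0.30, adjusted p = 0.00670). Of its exon bases, 2.98% overlap the antisense gene Gm16031, and since the library kit does not keep strand, reads there cannot be assigned to either.

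Bmpr2 (ENSMUSG00000067336, chromosome 1, 59763400 to 59879014, plus strand), the type II receptor for BMPs, was counted at 55.2 and 53.9 CPM in acute RA and at 202 and 163 CPM in acute CS. The controls were close to each other and both smoke libraries were well above them. The log2 fold change was 1.74 (SE 0.34, adjusted p = 0.0202). Eng (ENSMUSG00000026814, chromosome 2, 32646595 to 32682669, plus strand), the co-receptor, was counted at 293 and 329 CPM in acute RA and at 867 and 502 CPM in acute CS. Its groups did not overlap either, and the log2 fold change was 1.14 (SE 0.21, adjusted p = 0.0143). Eng shares 1.51% of its exon bases with Fpgs on the other strand.

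Tgfbr2 (ENSMUSG00000032440, chromosome 9, 116084293 to 116175360, minus strand), the type II receptor for TGF-beta, did not pass the test. It was counted at 1816 and 2179 CPM in acute RA and at 992 and 1719 CPM in acute CS. Both smoke libraries were below both controls, F by more than M, and the log2 fold change was -0.56 (SE 0.31, adjusted p = 0.449).

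The inhibitory SMADs had the largest fold changes of the 10 members. Smad6 (ENSMUSG00000036867, chromosome 9, 63953076 to 64022059, minus strand), which acts mainly on BMP receptors, was counted at 31.4 and 26.2 CPM in acute RA, and at 491 and 170 CPM in acute CS. The log2 fold change was 3.52 (SE 0.60, adjusted p = 0.0106), an 11.5-fold difference, with acute CS F higher than M. Smad7 (ENSMUSG00000025880), which inhibits both arms, was counted at 7.16 and 4.56 CPM in acute RA and at 93.2 and 47.3 CPM in acute CS. Both smoke libraries were many times the controls, with a log2 fold change of 3.58 (SE 0.49, adjusted p = 0.00532).

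Promoter sequences in the RefSeq table (GRCm38.p6, from 250 bases before to 50 bases after the start) matched 7 of the 10 members. Both strands were searched for the SMAD-type motifs GGCGCC, GCCGNCGC, GTCTAGAC and CAGAC, some of which can overlap one another. The palindrome GTCTAGAC is in 70 of 32851 windows (0.213%), and Smad6 holds 1 copy, at bases -4 to 4 around its transcription start. Tgfb1 holds 3 overlapping copies of GCCGNCGC (in 9.76% of windows) at bases 2 to 15. Bmpr2 has 1 GGCGCC (11.9% of windows), and CAGAC (49.6% of windows) occurs 2 times in Eng, 2 times in Id3 and 1 time in Tgfbr2. These matches describe the letters only. The Smad6 and Tgfb1 windows are shown because they hold the rarest match and the most matches, with the matched bases in capitals; they lie at chr9:64022010-64022309 (minus strand) and chr7:25686752-25687051 (plus strand).
Smad6: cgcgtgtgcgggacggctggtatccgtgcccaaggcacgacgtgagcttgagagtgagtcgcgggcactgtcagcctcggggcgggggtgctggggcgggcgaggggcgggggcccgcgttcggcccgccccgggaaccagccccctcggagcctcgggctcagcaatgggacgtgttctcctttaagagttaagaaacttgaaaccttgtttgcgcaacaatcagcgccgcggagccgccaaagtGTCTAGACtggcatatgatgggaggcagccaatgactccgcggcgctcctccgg
Tgfb1: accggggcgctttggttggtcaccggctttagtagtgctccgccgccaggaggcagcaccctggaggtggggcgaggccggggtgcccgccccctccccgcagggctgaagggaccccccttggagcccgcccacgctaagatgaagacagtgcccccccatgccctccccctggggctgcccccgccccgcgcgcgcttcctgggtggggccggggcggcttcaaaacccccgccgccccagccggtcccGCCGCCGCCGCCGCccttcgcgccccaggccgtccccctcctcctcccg

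The targets Id1 and Id3 encode inhibitors of basic helix-loop-helix transcription factors and are standard readouts of BMP signalling. Id1 (ENSMUSG00000042745, chromosome 2, 152736251 to 152737410, plus strand) was counted at 34.9 and 41.8 CPM in acute RA and at 161 and 188 CPM in acute CS. The log2 fold change was 2.18 (SE 0.36, adjusted p = 0.00968). Id3 (ENSMUSG00000007872, chromosome 4, 136143497 to 136145755, plus strand) was counted at 165 and 178 CPM in acute RA and at 433 and 450 CPM in acute CS, which gave a log2 fold change of 1.37 (SE 0.18, adjusted p = 0.00400). For both genes acute CS F and M were close to each other, unlike for Acvrl1, Eng, Smad6 and Smad7, where F was clearly higher.

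Of the ligands, Bmp4 (ENSMUSG00000021835, chromosome 14, 46383520 to 46390669, minus strand) was counted at 5.51 and 10.8 CPM in acute RA and at 34.5 and 47.3 CPM in acute CS. The groups were separate, but the log2 fold change of 2.33 (SE 0.61) missed the limit with an adjusted p of 0.0654. It passed with unfiltered counts and by DESeq2, which called 2.74% and 6.26% of all genes. Bmp4 shares 3.96% of its exon bases with Gm15217 on the other strand. Tgfb1 (ENSMUSG00000002603, chromosome 7, 25687002 to 25705077, plus strand) was counted at 115 and 134 CPM in acute RA and at 112 and 114 CPM in acute CS. The 2 smoke libraries lay just below the lower control, with a log2 fold change of -0.14 (SE 0.14, adjusted p = 0.757).

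**Figure D2:**
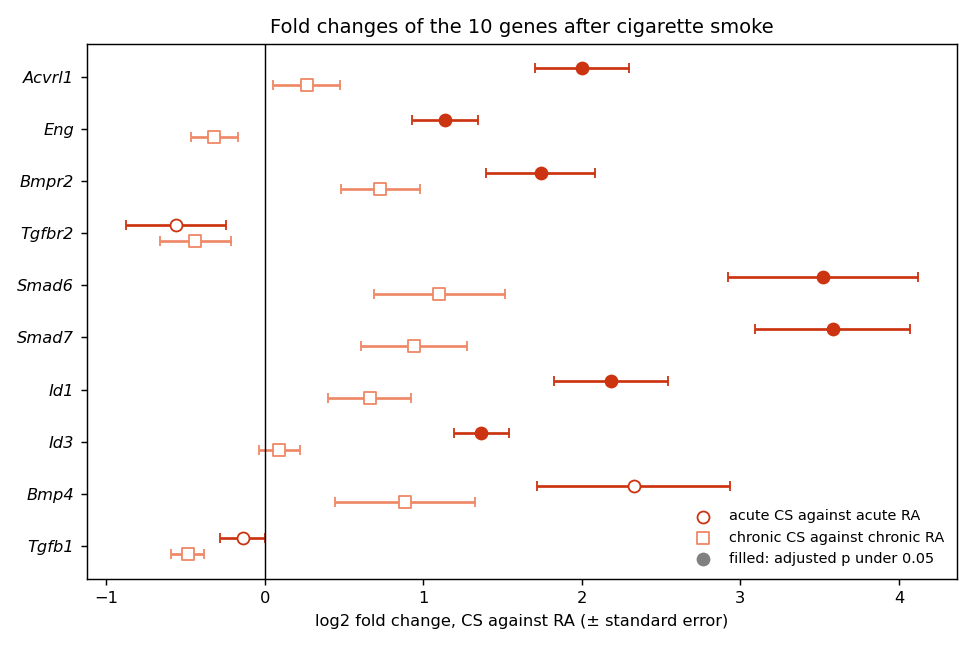
log2 fold change of CS against RA (horizontal axis) with its standard error for the 10 genes, in the acute comparison (circles) and the chronic comparison (squares). Filled symbols passed an adjusted p of 0.05, which 7 acute and 0 chronic values did, and Tgfbr2 and Tgfb1 lie below 0 in both comparisons while Eng lies above 0 in the acute and below 0 in the chronic comparison.

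The marker lists moved in the same 2 libraries. Of 12 blood endothelial markers, all had a log2 fold change above 0 in acute CS and 7 rose, with a median of 2.46 that lay above the members' median. The alveolar macrophage (4.24), leukocyte (3.98), lymphoid (3.40), erythroid (2.61) and mesenchymal (2.23) medians also lay above the members' median. The alveolar epithelial (1.855) and lymphatic medians did not. Relative to the mean of acute RA, the median log2 ratio of this list was 3.01 in F and 1.46 in M. The ratios of Smad6 were 4.09 and 2.56, those of Acvrl1 2.39 and 1.47 and those of Eng 1.48 and 0.69, all in the same order of F above M. The ratios of Id1 (2.08 and 2.29), Id3 (1.34 and 1.39) and Bmp4 (2.16 and 2.61) ran in the other order. Of 8 lymphatic markers, 7 had a log2 fold change below 0 and 3 fell, with a median of -1.05. Of 9 alveolar macrophage markers, 3 rose and 1, Mrc1, fell by 0.94 on the log2 scale (named after its value was seen). Among the other lists, called higher were 3 of 9 lymphoid and 6 of 11 mesenchymal markers, and 0 of 11 alveolar epithelial and 0 of 5 erythroid markers. The part of these cell type markers in the members' acute differences was not tested.

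**Figure D3:**
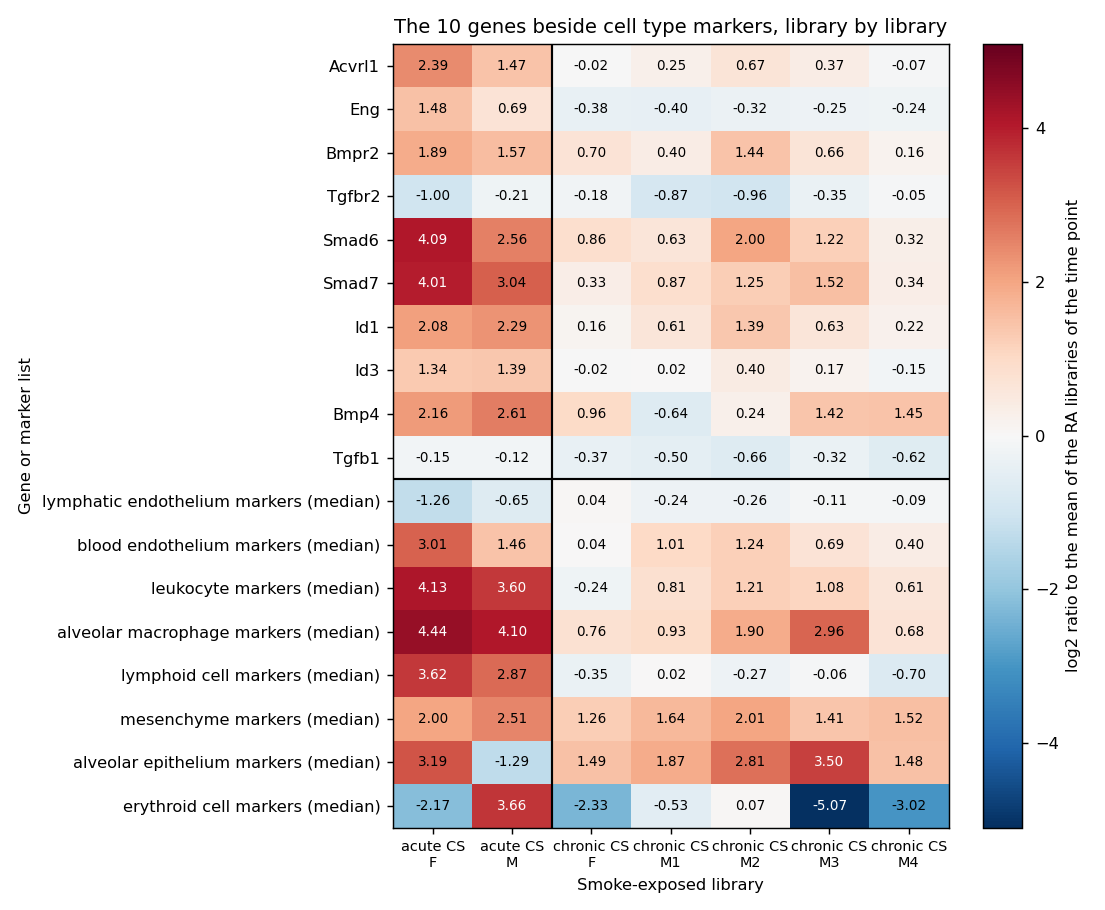
log2 ratio of each smoke-exposed library (columns) to the mean of the room air libraries of its time point, for the 10 genes and for the median of each of 8 cell type marker lists (rows), in colour and as printed values. The blood endothelial list is at 3.01 and 1.46 in the acute CS libraries and between 0.04 and 1.24 in the chronic CS libraries. Among chronic CS libraries M2 is highest for this list, for the leukocyte, mesenchymal and erythroid lists, and for Acvrl1, Bmpr2, Smad6, Id1 and Id3.

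After chronic CS, 0 members passed the adjusted limit by edgeR, as did 0% of all genes, and 1 (Tgfb1) passed by DESeq2, against 1.85% of all genes by that tool. At an unadjusted p of 0.05, 4 members were higher (Bmpr2, Smad6, Smad7 and Id1) and 1 lower (Tgfb1), against 10.9% of all genes in either direction. The 5 chronic CS libraries did not overlap the 3 chronic RA libraries for 4 members, Smad6 and Smad7 above and Eng and Tgfb1 below, against 9.41% of all genes. The median log2 fold change was 0.46 over the members and 0.01 over all genes. Without chronic CS M2 the members' median was 0.28.

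Tgfb1 was the member with the smallest p in the chronic comparison. It was counted at 158, 151 and 147 CPM in chronic RA F, M1 and M2, and at 118, 108, 96.0, 122 and 99.1 CPM in chronic CS F, M1, M2, M3 and M4. All 5 smoke libraries were below all 3 controls, with a log2 fold change of -0.49 (SE 0.10, unadjusted p = 0.000602, adjusted p = 0.215). The exact two-sided permutation p was 0.0357, the smallest that 5 against 3 libraries can give. This gene encodes TGF-beta 1, the prototype ligand of the TGF-beta arm. Eng was counted at 515, 428 and 474 CPM in chronic RA and at 363, 356, 378, 397 and 399 CPM in chronic CS. Here too every smoke library was below every control, the reverse of the acute order, with a log2 fold change of -0.32 (SE 0.15, adjusted p = 0.47, exact permutation p = 0.0357).

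The inhibitory SMADs lay on the higher side. Smad6 was counted at 36.1, 38.6 and 24.4 CPM in chronic RA and at 58.7, 50.2, 130, 75.5 and 40.4 CPM in chronic CS. Every smoke library exceeded every control, M2 by the most and M4 by the least, and the log2 fold change was 1.10 (SE 0.42, adjusted p = 0.394, exact permutation p = 0.0357). Smad7 was counted at 8.62, 7.08 and 7.24 CPM in chronic RA and at 9.56, 14.0, 18.2, 21.9 and 9.65 CPM in chronic CS. Its groups were separate by a small gap, with a log2 fold change of 0.94 (SE 0.34, adjusted p = 0.379, exact permutation p = 0.0357).

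Bmpr2 and Id1 were highest in chronic CS M2. Bmpr2 was counted at 48.3, 65.1 and 54.9 CPM in chronic RA and at 90.7, 73.3, 151, 88 and 62.3 CPM in chronic CS, with a log2 fold change of 0.73 (SE 0.25, adjusted p = 0.367). M4 lay within the control range, and without M2 the log2 fold change was 0.49. Id1 was counted at 28, 28.7 and 37.8 CPM in chronic RA and at 34.8, 47.5, 82.1, 48.4 and 36.4 CPM in chronic CS. M2 stood apart from the rest, and without it the log2 fold change of 0.66 (SE 0.26, adjusted p = 0.408) was 0.41.

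The remaining members overlapped between the chronic groups. Acvrl1 was counted at 268 to 304 CPM in chronic RA and 273 to 456 CPM in chronic CS (log2 fold change 0.26, SE 0.21). Id3 was counted at 135 to 166 and 135 to 198 CPM (log2 fold change 0.09, SE 0.13), and Bmp4 at 4.0 to 4.82 and 2.77 to 12 CPM (0.89, SE 0.44). M2 was the highest chronic CS library for Acvrl1 (456 CPM) and Id3 (198 CPM), and M3 came next (371 and 168 CPM). Tgfbr2 was counted at 3151, 3349 and 3483 CPM in chronic RA and at 2927, 1823, 1709, 2603 and 3222 CPM in chronic CS, so that 4 of 5 smoke libraries lay below the lowest control (log2 fold change -0.44, SE 0.23, adjusted p = 0.50). M1 and M2, the libraries with the lowest Tgfbr2, also had the highest blood endothelial medians, at log2 ratios of 1.01 and 1.24. The summed level of the same 12 markers ran otherwise, at 3864 CPM in M1 and 3250 CPM in M2 against 3434 to 3530 CPM in chronic RA, and 4 of 5 chronic CS libraries lay below every control. M1 and M2 also had the lowest summed level of the 8 lymphatic markers, at 14901 and 15137 CPM. That level was 20466 to 21220 CPM in chronic CS F, M3 and M4, and 19934 to 22931 CPM in chronic RA. In the marker lists, the median log2 fold change was 2.32 over 11 alveolar epithelial, 1.54 over 11 mesenchymal, 0.72 over 12 blood endothelial and -0.21 over 8 lymphatic markers in chronic CS. It was 1.03 over 9 alveolar macrophage, 0.77 over 8 leukocyte, -0.24 over 9 lymphoid and -1.44 over 5 erythroid markers, and 0 markers of any of the 8 lists passed the adjusted limit. At an unadjusted p of 0.05, higher were 8 of 11 alveolar epithelial, 8 of 11 mesenchymal, 5 of 12 blood endothelial and 4 of 9 alveolar macrophage markers. So were 3 of 9 lymphoid and 2 of 8 leukocyte markers, against 10.9% of all genes in either direction. Lower were 1 blood endothelial and 1 lymphatic marker. Their part in the members' chronic values was not tested.

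The room air groups were compared to ask how far the members differed between time points without smoke. Between chronic RA and acute RA, 0 members passed the adjusted limit by edgeR or by DESeq2, against 0% of all genes by edgeR and 0.869% by DESeq2. At an unadjusted p of 0.05, Eng and Tgfbr2 were higher in chronic RA, against 7.01% of all genes. Tgfbr2 was counted at 3151 to 3483 CPM in chronic RA and 1816 to 2179 CPM in acute RA (log2 fold change 0.74, SE 0.29, adjusted p = 0.684), and Eng at 428 to 515 and 293 to 329 CPM (0.60, SE 0.19, adjusted p = 0.554). These groups did not overlap, and Tgfb1 (above) and Bmp4 (below) also did not, against 34.7% of all genes. Of the markers of other and lymphatic cells 0 were called between the room air groups. Their median log2 fold change was 0.51 over 8 lymphatic, -0.01 over 12 blood endothelial, 0.31 over 8 leukocyte and 1.10 over 9 lymphoid markers. It was -0.60 over 9 alveolar macrophage, -1.26 over 11 mesenchymal, -1.21 over 11 alveolar epithelial and 2.60 over 5 erythroid markers. Of the lymphatic markers 3 of 8 had an unadjusted p under 0.05 and were higher in chronic RA, as were 3 of 9 lymphoid markers. Lower in chronic RA at this limit were 5 of 11 mesenchymal, 1 of 8 leukocyte and 1 of 9 alveolar macrophage markers. Their part in the values of Eng and Tgfbr2 was not tested. If acute RA libraries were pooled, pooling and time cannot be told apart here.

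The acute and chronic effects of CS were compared by an interaction term. Eng differed by 1.46 on the log2 scale (SE 0.26) and Id3 by 1.27 (SE 0.21), both with an adjusted p of 0.0406 and both larger in the acute comparison, while 0.452% of all genes passed. For Eng the acute effect was above 0 and the chronic effect below 0. The differences of Smad7 (2.64, SE 0.56, adjusted p = 0.0723), Acvrl1 (1.74, SE 0.35, adjusted p = 0.0657), Smad6 (2.42, SE 0.68, adjusted p = 0.163) and Id1 (1.52, SE 0.43, adjusted p = 0.164) were larger or similar in size but missed the limit. Leaving out chronic CS M2 gave 4 calls, where 0.625% of all genes passed. Leaving out any other chronic library ended both calls, as did sex as a covariate, where 0% to 0.331% and 0.0979% of all genes passed. Fits without 1 acute library left 1 in its group, and the members' median difference was then 1.255 to 1.564, against 1.45 with all libraries. For the marker lists, the median difference between the acute and chronic effects was 1.83 over 12 blood endothelial (0 called), 2.94 over 8 leukocyte (2 called), 3.60 over 9 lymphoid, 2.41 over 9 alveolar macrophage and 3.47 over 5 erythroid markers (0 called in each of the last 3 lists). It was -0.92 over 8 lymphatic (1 called), 0.41 over 11 mesenchymal and -0.54 over 11 alveolar epithelial markers (0 called in either of the last). Their part in the differences of Eng and Id3 was not tested.

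Ratios between members within a library do not depend on scaling, and they are given as a description. Id1 to Id3 was 0.21 and 0.24 in acute RA F and M and 0.37 and 0.42 in acute CS F and M. In chronic RA it was 0.207, 0.192 and 0.227, and in chronic CS it was 0.235, 0.313, 0.415, 0.288 and 0.269, so that every smoke library lay above every control of its time point. Eng to Acvrl1 ran the other way, at 1.05 and 1.27 in acute RA, 0.61 and 0.68 in acute CS, 1.59 to 1.69 in chronic RA and 0.83 to 1.46 in chronic CS. Co-receptor counts thus fell short of receptor counts in both acute CS libraries and in chronic CS M2. Acvrl1 to Tgfbr2 was 0.15 and 0.12 in acute RA and 1.42 and 0.43 in acute CS, but overlapped between chronic RA (0.08 to 0.10) and chronic CS (0.08 to 0.27). Smad6 to Smad7 ranged from 3.37 to 7.13 over the 12 libraries, and its groups overlapped at both time points.

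**Figure D4:**
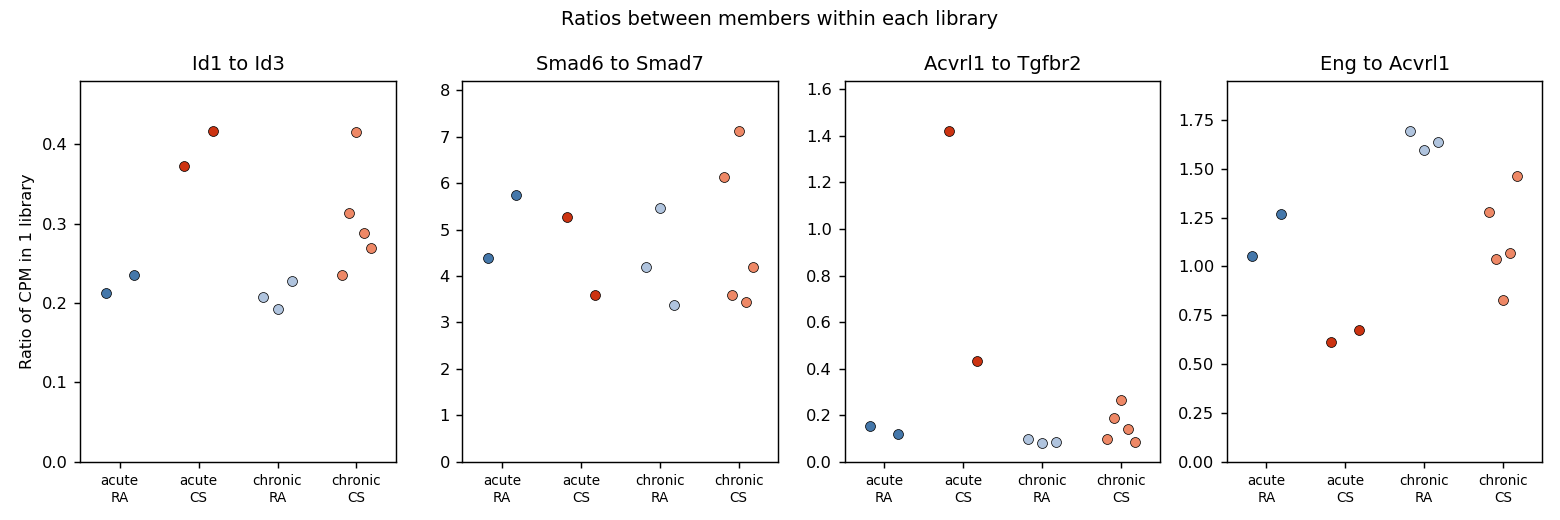
Ratio of the CPM of 1 member to another within each library (vertical axis, linear, from 0), by group, for Id1 to Id3, Smad6 to Smad7, Acvrl1 to Tgfbr2 and Eng to Acvrl1. Id1 to Id3 is higher and Eng to Acvrl1 lower in every CS library than in every RA library of the same time point, while Smad6 to Smad7 overlaps.

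The wider pathway was read from a list of 65 further genes, 60 of which were tested. In acute CS 5 rose and 1 fell, against 2.75% of all genes higher and 0.723% lower, and the median log2 fold change was 0.70. Of the BMP targets, 6 of 6 had a log2 fold change above 0 and 4 were called. DESeq2 called 13 genes of the list, against 6.26% of all genes. Tmem100, an endothelial gene downstream of ALK1, went from 113 and 69.2 CPM in acute RA to 1337 and 625 CPM in acute CS (log2 fold change 3.43, SE 0.61, adjusted p = 0.0124). Atoh8 went from 1.5 and 0.28 CPM to 11.4 and 12.3 CPM (3.72, SE 0.66, adjusted p = 0.0127), and Hey1, a transcriptional repressor also induced by Notch, from 25 and 18.6 CPM to 121 and 62.6 CPM (2.08, SE 0.32, adjusted p = 0.00824). Id2, of the same family as Id1 and Id3, went from 49.9 and 33.6 CPM to 123 and 116 CPM (1.52, SE 0.37, adjusted p = 0.0462).

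Outside the targets, 1 ligand rose and 1 signalling SMAD fell. Bmp6, a BMP ligand best known for its role in iron sensing by endothelium, went from 36.7 and 35.2 CPM to 551 and 209 CPM (log2 fold change 3.40, SE 0.48, adjusted p = 0.00584). Smad5, which carries the BMP signal to the nucleus, went from 162 and 187 CPM to 114 and 99.7 CPM (-0.71, SE 0.13, adjusted p = 0.0170). Smad1, which has the same role, had the same log2 fold change (-0.71, SE 0.20) with an adjusted p of 0.0888, and of the 12 signalling SMADs and cofactors 7 lay above 0 and 5 below. None of 7 receptors, 5 co-receptors, 8 extracellular antagonists, 10 genes of latent TGF-beta storage and activation or 4 TGF-beta targets passed in the acute comparison. Gdf2 and Bmp10, the genes of BMP9 and BMP10, were among the 5 that failed the filter, Bmp10 with 0 counts in every library. The acute count of 6 became 0 when the 2 groups were fitted alone and 0 with a replicate block, where 0.701% and 0.34% of all genes passed. It became 1 without acute RA F, 0 without acute RA M and 2 without acute CS F, fits chosen after seeing the data.

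In chronic CS 0 of the 60 pathway genes passed by edgeR, 12 had an unadjusted p under 0.05 (9 higher, 3 lower) and DESeq2 called 4, against 10.9% and 1.85% of all genes by those rules. The smallest p among those higher belonged to Mgp, a BMP antagonist, with a mean of 11 CPM over 3 chronic RA libraries (SD 1.69) and of 39.2 CPM over 5 chronic CS libraries (SD 18.9; log2 fold change 1.84, adjusted p = 0.261). Next came the type I receptor Bmpr1a, at 1.35 ± 0.55 and 4.88 ± 1.96 CPM (mean ± SD of the same groups, log2 fold change 1.85, adjusted p = 0.284), and the activin antagonist Fstl3, at 0.26 ± 0.29 and 1.28 ± 0.51 CPM (2.30, adjusted p = 0.348). Among those lower were Lrrc32, which anchors latent TGF-beta at the cell surface, at 460 ± 26.6 and 333 ± 97.4 CPM (-0.46, adjusted p = 0.434), and Bmp7, at 84.3 ± 13.9 and 64.8 ± 12.5 CPM (-0.38, adjusted p = 0.440). The BMP co-receptor Hjv was counted at 22, 36 and 21 reads in chronic RA and at 0 in 4 of 5 chronic CS libraries. All 6 BMP targets had a log2 fold change above 0, with a median of 1.12.

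**Figure D5:**
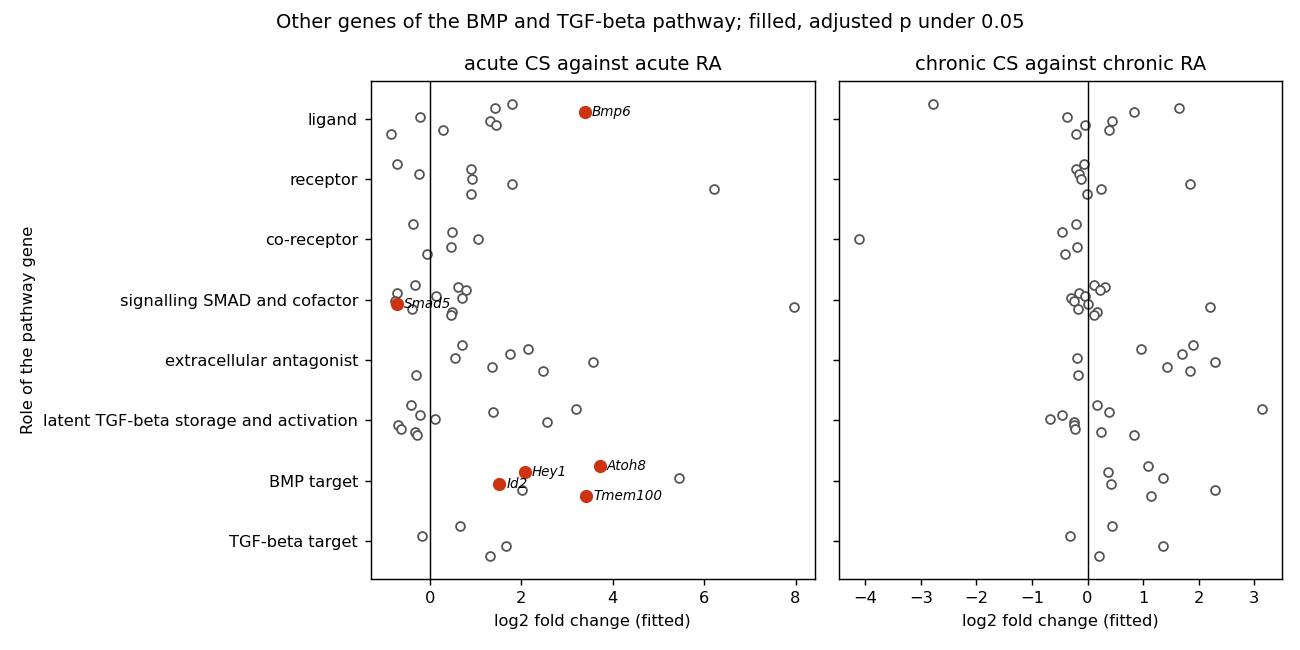
Fitted log2 fold change (horizontal axis) of the 60 tested pathway genes, by role (rows), in the acute comparison (left) and the chronic comparison (right). Filled, named points passed an adjusted p of 0.05, 6 in the acute and 0 in the chronic comparison, and the acute values above 6 belong to Smad9 and Bmpr1b, which had 0 counts in both acute RA libraries, so that their fitted values are no measure of size.

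Between the room air groups 0 of the 60 pathway genes passed by edgeR, 10 had an unadjusted p under 0.05 and DESeq2 called 2, against 7.01% and 0.869% of all genes. Higher in chronic RA with the smallest p were Bmp7 (log2 fold change 0.92, adjusted p = 0.387), Tgfbi, a TGF-beta target (1.27, adjusted p = 0.479), and Lrrc32 (0.77, adjusted p = 0.570). The lower genes with the smallest p were Nrros, which holds latent TGF-beta on myeloid cells (-0.91, adjusted p = 0.508), and Mgp (-1.33, adjusted p = 0.684). Id4 came next (-1.87, adjusted p = 0.728), with an unadjusted p of 0.0641 and overlapping groups. For the difference between acute and chronic effects, edgeR called 0 of 60, 12 had an unadjusted p under 0.05, and DESeq2 called 5, against 11.9% of all genes at the unadjusted limit and 3.05% by DESeq2. Those with the smallest p were Bmp6 (2.56), Hey1 (1.70) and Atoh8 (2.63) with the higher acute log2 fold change, and Smad5 (-0.73), Thbs1 (-1.13) and Smad1 (-0.56) with the higher chronic one, at adjusted p from 0.0757 to 0.403.

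Members were also compared by their pattern over all 12 libraries, as the root mean square (RMS) difference of log2 CPM after centring each gene. The closest pairs of members were Acvrl1 and Id3 (0.29), Acvrl1 and Bmpr2 (0.34) and Smad6 and Smad7 (0.35). Among 9835 other genes with a mean of at least 10 CPM, the patterns nearest to Acvrl1 were those of Adgrl2 (0.17), Scarb1 (0.19), Ehd4 (0.19) and Atp13a2 (0.20). Nearest to Smad6 were Glp1r (0.22), Tmcc3 (0.28), Atp2a3 (0.30) and Zeb2 (0.31), and nearest to Id1 were Crip1 (0.27), Bcam (0.27), S100a1 (0.28) and Baiap2 (0.31). Bmp4 had no neighbour as near, with Tnfrsf21 (0.43), Net1 (0.46), Fam198b (0.50) and Cd3g (0.51). The points share libraries and depth.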

How the data were processed

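RNA of sorted lung LECs was sequenced in 12 libraries. Each deposited file lists raw counts of reads by Ensembl identifier. To make them the authors ran trimming with Skewer, checks with FastQC 0.11.9 and Minion, alignment to GRCm38 with STAR and counting in its GeneCounts mode, with no normalization. The annotation release and strand setting are not given in the sources used here.

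Groups came from the labels, and the lengths of exposure and the pooling from the study's methods. The tests used edgeR 4.0.16 (with limma 3.58.1) or DESeq2 1.42.0 under R 4.3.3. Figures were drawn with matplotlib 3.10.9 from tables read by pandas 2.3.3 under Python 3.11.15. Symbols, coordinates and exon lengths came from GENCODE M21, in which 147 identifiers, with at most 0.011% of a library's counts, were not found, and Hjv was listed as Hfe2. Filtering on low counts (filterByExpr) kept 21440 genes. One model by group was fitted to all 12 libraries with TMM factors (8 residual degrees of freedom, quasi-likelihood F-test), and p-values were adjusted by Benjamini and Hochberg over all genes tested, with a limit of 0.05. Log2 CPM carries a prior count of 2. FPKM used the union of a gene's exons. Exact permutation tests were two-sided, with smallest p-values of 0.333 for the acute, 0.0357 for the chronic and 0.2 for the room air comparison. The fit was tested on simulated data.

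The members, the pathway and marker lists, the tests and the alternatives were chosen with earlier results of these data known. Named were all members, pathway genes past the limit or otherwise the 3 per direction with the smallest p, and the 4 genes nearest in pattern to Acvrl1, Smad6, Id1 and Bmp4. Of the other pathway genes, given by count, Gdf2, Bmp10, Smad9 and Bmpr1b are named outside this rule because of their counts. Alternatives were DESeq2, other scaling, sex as a covariate, no filter on low counts, a fit of the compared groups alone, a replicate block, robust estimation, depth subsets of chronic CS and leaving out each library. No 2 libraries of a group agreed within sampling noise. The floor of 3 counts is worth 0.158 CPM in the shallowest and 0.0507 CPM in the deepest library, and covers counting error only. The labels do not say from how many animals each library came, so p-values measure the spread between these samples.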

Additional observations from a re-analysis of the deposited data

Results flagged for a closer look

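In a group of 5 libraries, a library was set apart where its gap to the nearest other exceeded 0.71 of the group's range (Dixon's limit), which chance gives in about 1 of 20 groups. Looked at were the 10 members and the pathway genes named by smallest p in the chronic comparison, 16 genes in all, and no other pathway genes. Of the 15 of these with counts in at least 2 chronic CS libraries, 2 were set apart. Id1 was highest in chronic CS M2 at 82.1 CPM, with a gap of 0.712 of the range, just past the limit. The activin antagonist Fstl3 was also highest in M2, at 2.16 CPM (52 counts). Hjv, which is not among the 15, was at 0.18 CPM (8 counts) in M4 and at 0 counts in the other chronic CS libraries, where any count would pass the limit. The blood endothelial marker median was also highest in M2, at a log2 ratio of 1.24 to chronic RA. The summed level of these markers in M2 (3250 CPM) was below the 3434 to 3530 CPM of chronic RA. The leukocyte (1.21), mesenchymal (2.01) and erythroid (0.07) medians were highest in M2 too, and those of the other lists were not. The part of these marker lists in the value of Id1 was not tested.

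The effect of CS differed between the time points for Eng, by 1.46 on the log2 scale, and for Id3, by 1.27, by edgeR's interaction test (adjusted p = 0.0406 for each). Neither was called with sex as a covariate, with a replicate block, when M3 and M4 of chronic CS were dropped, or in 10 of 12 fits that left out 1 library, and Eng was not called with chronic CS M3 and M4 only, where Id1 and Id3 were. Eng was higher in 2 of 2 acute CS libraries and lower in 5 of 5 chronic CS libraries than the controls of the same time point.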

How the results depend on the processing

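No member changed direction in the acute or the chronic comparison under any alternative run. In the acute comparison, 3 members passed when only the groups compared were fitted (Bmpr2, Id1 and Id3), where 0.701% of all genes passed. Leaving out 1 chronic library gave 7 or 8, where 2.63% to 4.51% of all genes passed. Leaving out 1 acute library left 1 in its group, and the members' median log2 fold change was then 1.52 to 1.98. The 7 acute calls became 8 by DESeq2 and 8 with unfiltered counts, where Bmp4 was added, while 6.26% and 2.74% of all genes passed. For the pathway genes, DESeq2 called 13 in the acute, 4 in the chronic and 2 in the room air comparison and 5 for the difference of effects, fitting only the groups compared gave 0 acute and 1 room air call, and leaving out 1 library gave 0 to 7 acute calls. DESeq2 called 1 member (Tgfb1) in the chronic comparison. For the difference of effects, members called were 6 by DESeq2 (3.05% of all genes), 1 by library size without TMM (0.424%) and 4 without a filter (0.595%). With sex as covariate (0.0979%) or chronic CS F, M1 and M2 only (0.51%), 0 were called. Leaving out 1 chronic library gave 0 to 4, where 0% to 0.625% of all genes passed. The cause was not tested.

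Library size without TMM moved the median log2 fold change of all genes to 0.10 in the chronic and -0.10 in the room air comparison. Between the room air groups it turned Acvrl1 to -0.0096 and Bmpr2 to -0.067, and the log2 fold change of Bmpr2 ranged from -0.089 to 0.13 leaving out 1 library. The difference of effects of Tgfbr2 was 0.010 with chronic CS F, M1 and M2 only and ranged from -0.57 to 0.22 leaving out 1 library.

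Same-numbered libraries did not deviate together (correlations of 0.07 for the acute pairs and -0.04, 0.03 and 0.01 for the chronic pairs), so the numbers were not read as pairs. With a replicate block the calls were 3 acute members (Smad7, Id1 and Id3), 0 acute pathway genes and 0 members for the difference. Of all genes, 0.34% passed with this block in the acute comparison and 0% for the difference. The block turned the room air values of Acvrl1 to -0.28, Bmpr2 to -0.23, Smad6 to -0.36, Smad7 to -0.12 and Bmp4 to 0.015, and the difference of Tgfbr2 to 0.065. The acute and chronic groups share only the label F, so only the F libraries link the time points in these room air values. Every member had at least 63 counts in each library, above the floor of 3. Where 1 library of an acute group was left out, the remaining one was assumed to vary like the other groups.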
